A study of Homo sapiens with 6 samples.

Results

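The autophagy and mitophagy machinery was examined as 50 genes of the autophagosome and of mitochondrial quality control. A probe set, a group of short probes whose signals are combined into a single value, counted for a gene only if the platform annotation gives that gene's symbol alone. All 50 genes had such a probe set. They hold 163 of the 49386 probe sets of the array, and the tests covered 18239 genes. RNA came from LNCaP, an established line of prostate adenocarcinoma cells whose growth responds to androgen. The cells were kept in F12 medium supplemented with fetal bovine serum. On Affymetrix U219 arrays, 3 arrays of control cells were set against 3 arrays of cells given 40 µM urolithin A for 24 h. Urolithin A is made by gut bacteria from ellagitannins of foods such as pomegranate and walnut. The titles describe the controls as untreated and the protocol as given saline, and the vehicle of urolithin A is not named. The comparison asks which transcripts the exposure moved, in a single line, at a single dose and a single time.

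Autophagy wraps cell material in a double membrane, the autophagosome, and delivers it to the lysosome. The ULK kinase complex starts it, a PI3-kinase complex and WIPI proteins mark the growing membrane, and conjugation enzymes attach the small ATG8 proteins (the LC3 and GABARAP proteins) to it. Receptors such as p62 and NIX tie cargo to the ATG8 proteins. Mitophagy is the form that removes mitochondria. The kinase PINK1 gathers on damaged mitochondria and marks them through ubiquitin, and urolithin A is known for raising mitophagy in worms and muscle. These arrays measured transcripts, not proteins or the rate of autophagy.

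The deposited values are log2 differences from the control median of each probe set. Differences between arrays can be read from them and levels cannot, so no sentence here compares the abundance of 2 genes. The median over all probe sets was 0 on each control array and between -0.0013 and 0.014 on the urolithin A arrays. The labelled cell type could not be checked by the level of its markers. Of 6 measured markers of luminal prostate epithelium 3 fell and 1 rose, and of 12 measured markers of basal, stromal, blood and endothelial cells 1 passed the test. That marker was VIM, at a log2 change of 0.57 (adjusted p = 0.0461). 18S ribosomal RNA was lowest on control replicate 3 (-0.42) and urolithin A replicate 3 (-0.46), and HLA-DRA was raised on 3 arrays, control replicate 1 (1.01) and urolithin A replicates 2 (1.17) and 3 (3.09). The part of cell makeup and RNA quality in the results below was not tested. Separate cultures are not named in the labels, so the p-values speak only of the spread among these arrays, perhaps a technical one.

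After urolithin A, 12 of the 50 genes changed, 9 of them higher and 3 lower. The 9 that rose were PINK1, the ATG8 genes MAP1LC3B and GABARAPL2, the receptor genes SQSTM1, NBR1, OPTN and BNIP3L, the ATG8 protease gene ATG4A and the phosphoinositide reader gene WIPI2. The 3 that fell were MFN2 and DNM1L, which fuse and divide mitochondria, and ATG7, which activates ATG8 proteins. All 12 changes were between 1.18-fold and 1.54-fold. A change was called where limma, which fits all genes together, gave an adjusted p under 0.05. Among all 18239 genes 10.2% were called, 4.85% higher and 5.31% lower. Among the 50 genes 24% were called, 18% higher and 6% lower. In bulk RNA, a change in the makeup of the culture and a change of RNA per cell cannot be told apart.

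The median log2 change of the 50 genes was 0.11, and that of all genes 0.010. On single arrays the median of the 50 genes was 0.017, -0.025 and 0.00067 for control replicates 1, 2 and 3 and, for urolithin A replicates 1, 2 and 3, 0.11, 0.11 and 0.12. In 37 of the 50 (74%) the mean change was above 0, against 53.1% of all genes. No urolithin A array fell inside the control range in 24 genes, 18 of them higher (36%) and 6 lower (12%). The same was seen in 29.3% of all genes, 15.6% higher and 13.7% lower. The count of changed genes moved with the normalization and with the arrays kept, and so did the count over all genes. Scaled on the hybridization controls, RNAs added in fixed amounts, 4 genes rose and 0 fell by limma, the 4 being MAP1LC3B, SQSTM1, OPTN and PINK1, while 3.54% of all genes were called (334 higher and 312 lower). Without control replicate 2 the count was 7, with 5.83% of all genes called. With any 1 array other than control replicate 3 left out, DNM1L was the only gene of the 50 that fell. Without both control replicate 1 and urolithin A replicate 3, the arrays with the highest HLA-DRA of their group, 4 changed, here MAP1LC3B, GABARAPL2, SQSTM1 and PINK1, with 3.87% of all genes called.

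**Figure D1:**
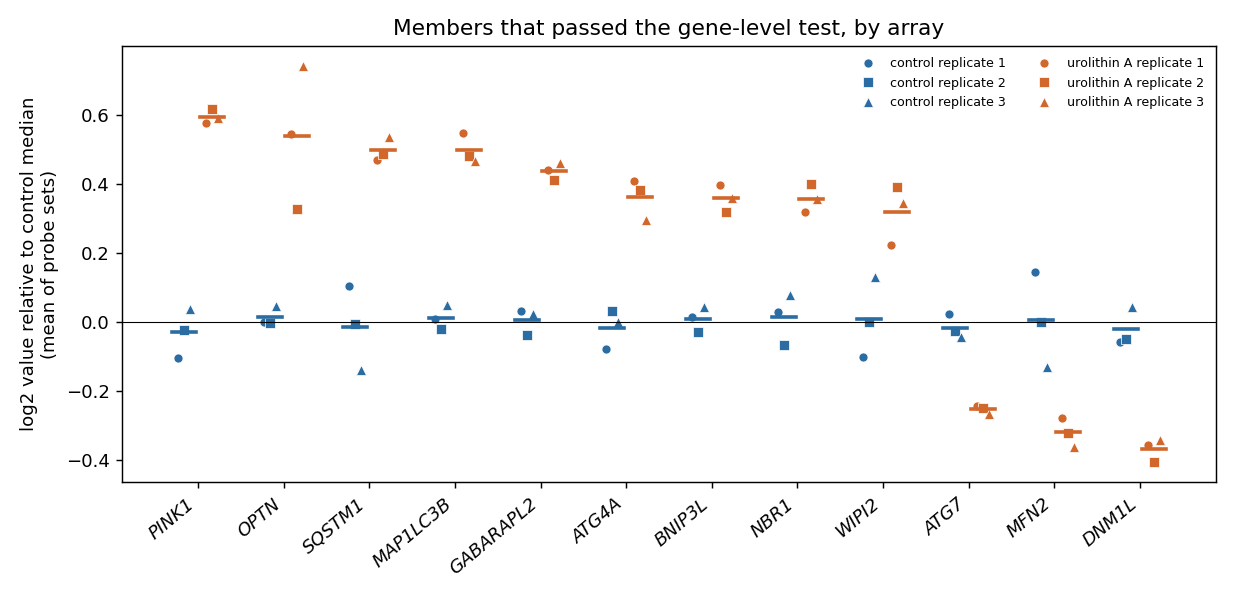
Log2 value relative to the control median (vertical axis) of the 12 genes that passed the gene-level test, for each of 3 control arrays (blue) and 3 urolithin A arrays (orange). Marker shape gives the replicate number and bars give group means. In each of the 12 genes the 2 groups do not overlap, and OPTN has the widest urolithin A range, 0.33 to 0.74.

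PINK1, the kinase that builds up on damaged mitochondria and phosphorylates ubiquitin there, had the largest change of the 50. It stood at -0.10, -0.022 and 0.039 on control replicates 1, 2 and 3 and 0.58, 0.62 and 0.59 on urolithin A replicates 1, 2 and 3. The urolithin A arrays lay close together and above every control array. The rise was 1.54-fold (0.62 ± 0.066 SE in log2 units, adjusted p = 0.0011). Both of its probe sets rose, by 0.42 and 0.83 on the log2 scale. Its call held in each of 15 other fits, with adjusted p up to 0.0296.

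Beside PINK1, the other ubiquitin genes of the outer mitochondrial membrane gave no call as gene means. MUL1 codes for a ubiquitin ligase of that membrane, and its log2 change was 0.077 (95% interval -0.12 to 0.28). USP30 codes for a deubiquitinase that removes ubiquitin from mitochondria and so acts against PINK1. Its gene mean had a log2 change of 0.20 (adjusted p = 0.127), but that mean covers 2 probe sets that differed from each other. Probe set 11754638_a_at stood at -0.12, 0.025 and 0 on control replicates 1, 2 and 3 and 0.73, 0.64 and 0.63 on urolithin A replicates 1, 2 and 3. Probe set 11754975_a_at stood at -0.016, 0.20 and 0 on control replicates 1, 2 and 3 and -0.33, -0.067 and -0.29 on urolithin A replicates 1, 2 and 3. The first rose (0.70 ± 0.086 SE in log2 units, adjusted p = 0.0023), and the second did not pass although its urolithin A arrays all lay below the controls (-0.29 ± 0.11 SE in log2 units, adjusted p = 0.143). The difference between them was 0.99 log2 units (± 0.12 SE, adjusted p = 0.00773).

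Of the 5 ATG8 genes, 2 rose and 3 did not pass. Their median log2 change was 0.16. MAP1LC3B codes for LC3B, the protein most used to mark autophagosomes. MAP1LC3B stood at 0.0097, -0.021 and 0.049 on control replicates 1, 2 and 3 and 0.55, 0.48 and 0.47 on urolithin A replicates 1, 2 and 3. The gap between the groups was far wider than the spread within either, and the rise was 1.40-fold (0.49 ± 0.063 SE in log2 units, adjusted p = 0.00267). Of its 3 probe sets, 2 rose, and the third had a log2 change of 0.20 (adjusted p = 0.23). As for PINK1, the call held in each of 15 other fits, with adjusted p up to 0.0447.

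GABARAPL2 codes for GATE-16, a GABARAP protein that acts in membrane fusion and late autophagosome growth. GABARAPL2 stood at 0.034, -0.036 and 0.025 on control replicates 1, 2 and 3 and 0.44, 0.41 and 0.46 on urolithin A replicates 1, 2 and 3. Each urolithin A array was above each control array, and the rise was 1.35-fold (0.43 ± 0.062 SE in log2 units, adjusted p = 0.00429). All 4 of its probe sets rose, by 0.36 to 0.50 on the log2 scale. The 3 other ATG8 genes did not pass. GABARAPL1 had a log2 change of 0.16 (95% interval -0.0062 to 0.32), with groups that did not overlap. GABARAP had 0.098 (95% interval -0.057 to 0.25), with overlapping groups. MAP1LC3A, measured by 1 probe set, had -0.071, and its control arrays alone ranged from -0.56 to 0.39. That spread leaves a 95% interval of -0.53 to 0.39, the widest of the 5 genes.

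To show what lies in front of genes that both rose, promoter windows of the 2 risen ATG8 genes are printed, the 250 bases before the annotated start from RefSeq (GRCh38.p14). Capitals mark a match to TGACNNNGC, the core of the antioxidant response element that NRF2 binds; N is any base, and both strands were searched. The MAP1LC3B window is chr16:87392086-87392335, plus strand, and that of GABARAPL2 is chr16:75566129-75566378, plus strand.
MAP1LC3B: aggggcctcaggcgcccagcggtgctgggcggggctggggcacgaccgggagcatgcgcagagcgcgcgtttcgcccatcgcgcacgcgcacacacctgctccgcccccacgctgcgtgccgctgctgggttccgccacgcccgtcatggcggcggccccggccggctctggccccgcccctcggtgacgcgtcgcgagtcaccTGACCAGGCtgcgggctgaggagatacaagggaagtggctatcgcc
GABARAPL2: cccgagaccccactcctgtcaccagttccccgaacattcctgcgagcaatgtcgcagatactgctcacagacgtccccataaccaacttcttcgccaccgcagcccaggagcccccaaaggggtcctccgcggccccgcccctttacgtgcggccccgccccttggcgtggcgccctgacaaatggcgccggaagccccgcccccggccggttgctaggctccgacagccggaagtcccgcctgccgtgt
The match in the MAP1LC3B window begins 46 bases before the start, and the GABARAPL2 window holds none. In the table used, 43 of the 50 genes had 55 such windows. PINK1 and BNIP3L had none, so the search covered 7 of the 9 genes that rose and all 3 that fell. The TGACNNNGC core was in the windows of 3 of the 43 genes, MAP1LC3B, ATG101 and CALCOCO2, and in 5.45% of the 55 windows against 10.9% of all 35116 windows. CACGTG, the E-box core within the CLEAR element that TFEB binds, was in those of ATG14, ATG3, TBK1 and BNIP3, none of which passed the gene-level test, and in 7.27% of the windows against 6.34% of all. The longer CLEAR palindrome, which contains CACGTG, was in none of the 55 windows and in 0.308% of all. A match describes letters only, and a window without a match says only that these letters are not in these 250 bases.

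Among the soluble cargo receptors and their kinase TBK1, 3 of 6 genes rose and 3 did not pass. The median of their log2 changes was 0.24. SQSTM1 codes for p62, which gathers ubiquitinated cargo and also frees NRF2 from its inhibitor KEAP1. SQSTM1 stood at 0.10, -0.0063 and -0.14 on control replicates 1, 2 and 3 and 0.47, 0.49 and 0.53 on urolithin A replicates 1, 2 and 3. The lowest urolithin A array was above the highest control array, and the rise was 1.43-fold (0.51 ± 0.077 SE in log2 units, adjusted p = 0.00524). Of its 5 probe sets 4 rose. The remaining one had a log2 change of 0.40 (adjusted p = 0.062). It was the only one whose name ends in neither _s_at nor _x_at, the endings counted here as marking shared sequence. RefSeq lists 3 starts for SQSTM1, and the 250 bases before the first are shown because SQSTM1 had the next largest rise after PINK1 and OPTN (chr5:179806143-179806392, plus strand).
SQSTM1: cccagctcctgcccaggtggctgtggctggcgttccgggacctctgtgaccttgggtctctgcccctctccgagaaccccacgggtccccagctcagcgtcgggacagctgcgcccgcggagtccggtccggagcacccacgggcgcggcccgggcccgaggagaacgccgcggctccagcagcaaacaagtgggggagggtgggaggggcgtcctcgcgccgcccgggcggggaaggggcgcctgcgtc
None of the 3 SQSTM1 windows held TGACNNNGC or CACGTG.

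OPTN codes for optineurin, a receptor that is recruited to ubiquitinated mitochondria and is activated by TBK1. OPTN stood at 0, -0.0019 and 0.046 on control replicates 1, 2 and 3 and 0.54, 0.33 and 0.74 on urolithin A replicates 1, 2 and 3. The control arrays lay close together and the urolithin A arrays far apart, without overlap between the groups. The rise was 1.44-fold (0.52 ± 0.10 SE in log2 units, adjusted p = 0.0147), and it lost its call without control replicate 1 or 2 (adjusted p = 0.0523 and 0.0529). Of its 3 probe sets 2 rose, and the only one whose name does not mark shared sequence had 0.29 (adjusted p = 0.33).

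NBR1 codes for a receptor that acts beside p62 in gathering ubiquitinated proteins. NBR1 stood at 0.029, -0.065 and 0.079 on control replicates 1, 2 and 3 and 0.32, 0.40 and 0.36 on urolithin A replicates 1, 2 and 3. The groups were apart, and the rise was 1.27-fold (0.34 ± 0.068 SE in log2 units, adjusted p = 0.0154). Its call ended without replicate 2 of the controls or of urolithin A (adjusted p = 0.0593 and 0.0563). Of 6 probe sets 3 rose, by 0.53 to 0.63 on the log2 scale, and the 3 that did not pass ranged from -0.062 to 0.25. The 3 that rose carry names ending in _x_at or _s_at, and the only NBR1 probe set without such an ending was the one at -0.062. Names ending in _a_at were not counted here as marking shared sequence. Such probe sets may still match several transcripts of their gene.

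CALCOCO2 codes for NDP52, a receptor for bacteria and mitochondria, and its log2 change was 0.14 (95% interval -0.079 to 0.35). TAX1BP1, a receptor for aggregates, had 0.11 (95% interval -0.059 to 0.27). TBK1, the kinase that activates OPTN and NDP52, had 0.0022 (95% interval -0.16 to 0.17). The groups of all 3 overlapped.

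**Figure D2:**
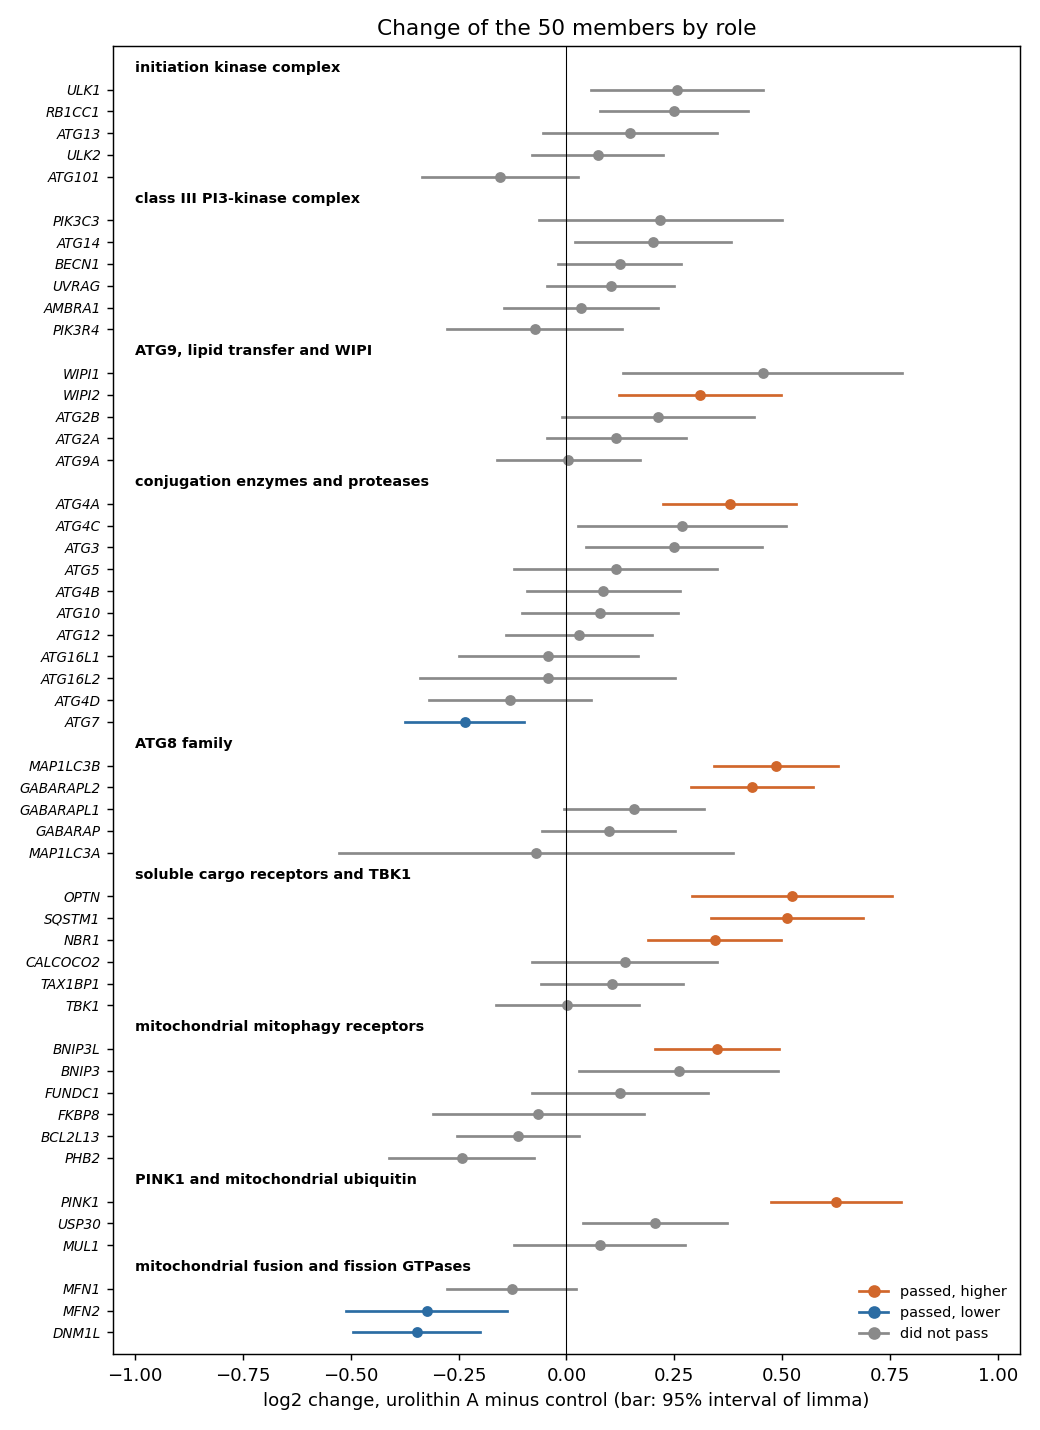
Log2 change of the mean of probe sets (urolithin A minus control, horizontal axis) for the 50 genes, grouped by role. Points are limma estimates and bars their 95% intervals, from 3 arrays a group. Orange genes rose and blue genes fell at an adjusted p under 0.05, with PINK1 highest at 0.62 and DNM1L lowest at -0.35.

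Of the 6 receptors that sit in mitochondria themselves, 1 rose and 5 did not pass. The group had a median log2 change of 0.030. BNIP3L codes for NIX, the receptor by which maturing red cells clear their mitochondria. BNIP3L stood at 0.015, -0.028 and 0.045 on control replicates 1, 2 and 3 and 0.40, 0.32 and 0.36 on urolithin A replicates 1, 2 and 3. Every urolithin A array was above every control array, and the rise was 1.27-fold (0.35 ± 0.063 SE in log2 units, adjusted p = 0.0111). Of its 6 probe sets 3 rose, and the log2 changes of all 6 lay between 0.28 and 0.53. Its relative BNIP3, also a receptor of the outer membrane, stood at 0.008, -0.056 and 0.029 on control replicates 1, 2 and 3 and 0.17, 0.11 and 0.48 on urolithin A replicates 1, 2 and 3. The groups did not overlap, but urolithin A replicate 3 was far above replicates 1 and 2. The log2 change of 0.26 did not pass (adjusted p = 0.154). Of the 2 BNIP3 probe sets, 11760104_at had 0.49 (adjusted p = 0.109) with groups apart. The other, 11743084_s_at, had 0.028 (adjusted p = 0.888) with overlapping groups, and their difference did not pass (adjusted p = 0.152).

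FUNDC1, a receptor of mitophagy under low oxygen, had a log2 change of 0.12 (95% interval -0.079 to 0.33). FKBP8, an outer membrane receptor that binds LC3, had -0.065 (95% interval -0.31 to 0.18). PHB2, the inner membrane prohibitin that LC3 can bind once the outer membrane is broken, stood at 0.057, -0.15 and 0 on control replicates 1, 2 and 3 and -0.30, -0.26 and -0.26 on urolithin A replicates 1, 2 and 3. All 3 urolithin A arrays of PHB2 lay below the controls, and the change was just outside the threshold (-0.24 ± 0.074 SE in log2 units, adjusted p = 0.0772).

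BCL2L13 codes for a receptor of the BCL2 family that binds LC3, and its 7 probe sets did not move together. Probe set 11749886_a_at stood at 0.21, -0.02 and 0 on control replicates 1, 2 and 3 and -0.62, -1.02 and -0.88 on urolithin A replicates 1, 2 and 3. Probe set 11756765_x_at stood at 0, -0.20 and 0.027 on control replicates 1, 2 and 3 and -0.91, -0.93 and -0.80 on urolithin A replicates 1, 2 and 3. Probe set 11759604_s_at stood at 0, 0.046 and -0.11 on control replicates 1, 2 and 3 and 0.51, 0.58 and 0.58 on urolithin A replicates 1, 2 and 3. The first pair fell, with no overlap between the groups (-0.91 ± 0.12 SE in log2 units, adjusted p = 0.00366 for the first and -0.82 ± 0.095 SE in log2 units, adjusted p = 0.00174 for the second). The last rose, also with no overlap (0.58 ± 0.085 SE in log2 units, adjusted p = 0.00511). The other 4 had log2 changes from -0.031 to 0.26 and did not pass. Against the mean of the other BCL2L13 probe sets, 11756765_x_at differed by -0.83 log2 units (± 0.097 SE, adjusted p = 0.00796) and 11759604_s_at by 0.81 log2 units (± 0.10 SE, adjusted p = 0.00966). Probe set 11749886_a_at differed by -0.93 log2 units (± 0.13 SE, adjusted p = 0.0134). So did 11742809_s_at, which did not pass on its own, by 0.44 log2 units (± 0.090 SE, adjusted p = 0.0366). The gene mean of -0.11 (adjusted p = 0.323) therefore averages opposite changes. With the 3 probe sets whose names do not mark shared sequence it was -0.28 and passed (adjusted p = 0.0482).

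The enzymes of ATG8 and ATG12 conjugation, with the ATG4 proteases, were mostly not called. Of 11 genes 1 rose, 1 fell and 9 did not pass. Their median log2 change was 0.077. ATG4A codes for a protease that trims ATG8 proteins, chiefly GABARAP proteins, before and after they are attached to membrane. ATG4A stood at -0.078, 0.032 and 0 on control replicates 1, 2 and 3 and 0.41, 0.38 and 0.30 on urolithin A replicates 1, 2 and 3. The groups were apart, and the rise was 1.30-fold (0.38 ± 0.067 SE in log2 units, adjusted p = 0.0106). Both of its probe sets had changes above 0, 0.47 with a call and 0.29 without one. Of the other 3 proteases none was called by limma as a gene mean, with log2 changes of 0.086 in ATG4B, 0.27 in ATG4C and -0.13 in ATG4D, and 1 of the 3, ATG4C, had an unadjusted p under 0.05. In ATG4B, 1 of 6 probe sets rose (0.48 ± 0.083 SE in log2 units, adjusted p = 0.00941) and the others ranged from -0.16 to 0.34. The difference of that probe set from the others did not pass (0.48 log2 units (± 0.12 SE, adjusted p = 0.0688)).

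ATG7 codes for the E1-like enzyme that activates both ATG12 and the ATG8 proteins. ATG7 stood at 0.024, -0.026 and -0.044 on control replicates 1, 2 and 3 and -0.24, -0.25 and -0.27 on urolithin A replicates 1, 2 and 3. The urolithin A arrays lay close together and below the controls, and the fall was 1.18-fold (-0.24 ± 0.061 SE in log2 units, adjusted p = 0.0437). It is a small change near the threshold, and the call ended without any single array, with adjusted p from 0.0864 to 0.129. Of its 3 probe sets 1 fell (-0.41 ± 0.089 SE in log2 units, adjusted p = 0.0269), and another had a log2 change of 0.032.

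ATG5, the partner to which ATG12 is joined, showed opposite changes within a single gene. Probe set 11757828_s_at stood at 0.46, -0.042 and 0 on control replicates 1, 2 and 3 and 1.64, 1.25 and 0.93 on urolithin A replicates 1, 2 and 3. Probe set 11718147_a_at stood at 0, 0.045 and -0.094 on control replicates 1, 2 and 3 and -0.27, -0.43 and -0.62 on urolithin A replicates 1, 2 and 3. Probe set 11745992_a_at stood at -0.094, 0.12 and 0 on control replicates 1, 2 and 3 and -0.31, -0.33 and -0.44 on urolithin A replicates 1, 2 and 3. The first rose (1.13 ± 0.19 SE in log2 units, adjusted p = 0.00925) and the other two fell (-0.42 ± 0.11 SE in log2 units, adjusted p = 0.0465 and -0.37 ± 0.092 SE in log2 units, adjusted p = 0.0433), each with no overlap between the groups. The rising probe set differed from the mean of the falling pair by 1.53 log2 units (± 0.18 SE, adjusted p = 0.00801). The gene mean, at 0.11, did not pass (adjusted p = 0.572), and the median of the 3 probe sets gave -0.36 (adjusted p = 0.0147). The name of the rising probe set ends in _s_at and those of the falling pair end in _a_at, an ending not counted here as marking shared sequence.

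ATG3, the enzyme that hands ATG8 proteins to the membrane lipid, had a single probe set that stood out among 6. Probe set 11759680_a_at stood at 0.20, 0 and -0.066 on control replicates 1, 2 and 3 and 0.95, 0.77 and 0.84 on urolithin A replicates 1, 2 and 3. Its urolithin A arrays were all far above the controls (0.81 ± 0.10 SE in log2 units, adjusted p = 0.00247), whereas in the other 5 probe sets the log2 changes were 0.072 to 0.21 and the groups overlapped. It differed from the mean of the others by 0.67 log2 units (± 0.11 SE, adjusted p = 0.019). That difference passed in 4 of 9 other fits, and was lost without control replicate 2 or 3, without urolithin A replicate 1 or 3, and with a robust prior with a trend. The gene mean was 0.25 (adjusted p = 0.126), and 0.37 (adjusted p = 0.0444) without probe sets whose names mark shared sequence. The remaining genes of this group gave smaller values. ATG10, the enzyme that passes ATG12 to ATG5, had a log2 change of 0.077, and the ubiquitin-like protein gene ATG12 had 0.029. ATG16L1, which places the conjugation complex on membrane, had -0.042, and its relative ATG16L2 -0.043. The groups of these 4 overlapped.

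**Figure D3:**
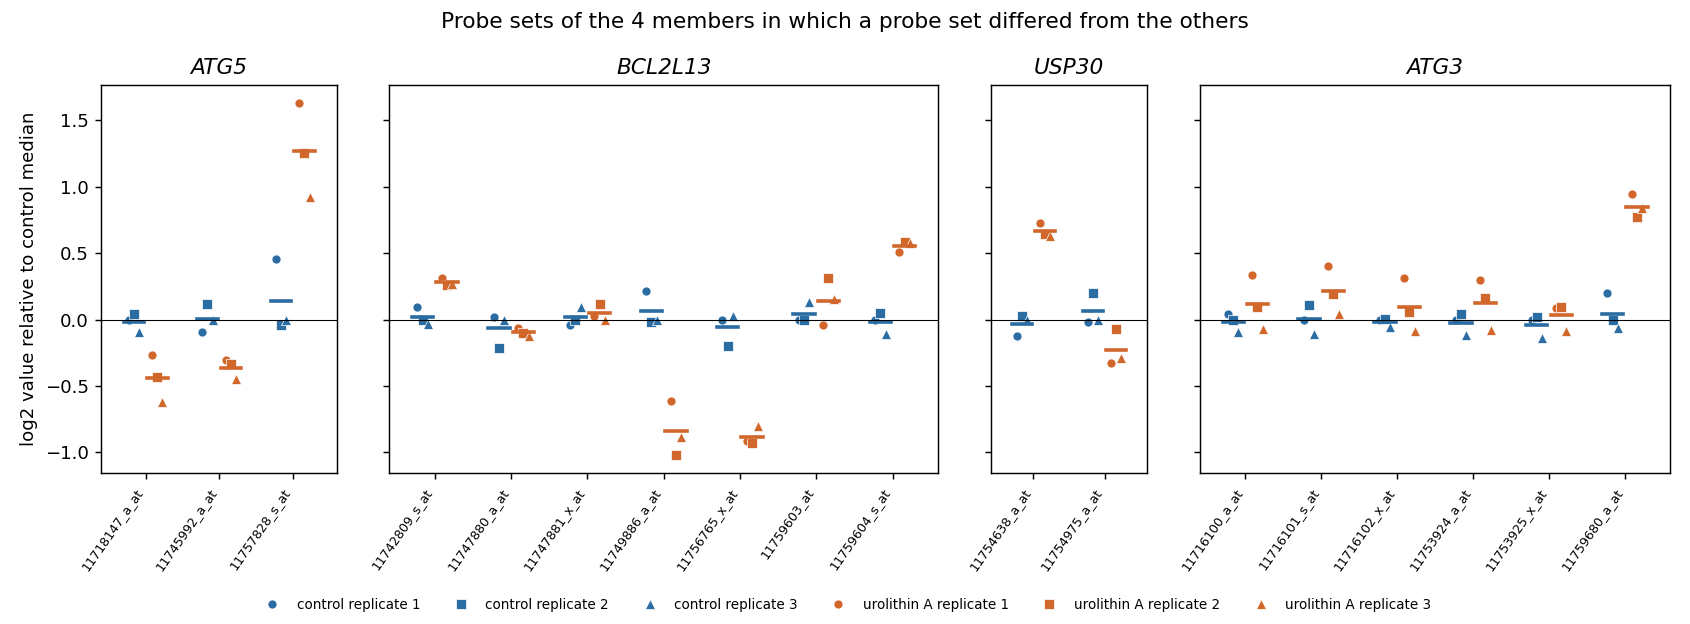
Log2 value relative to the control median (vertical axis) of every probe set of ATG5, BCL2L13, USP30 and ATG3, for 3 control arrays (blue) and 3 urolithin A arrays (orange), with bars at group means and marker shapes for replicates. In ATG5 and BCL2L13 some probe sets rose and others fell, and in ATG3 a single probe set rose, by 0.81.

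In all, 37 of the 163 probe sets passed on their own (22.7%), 29 higher and 8 lower, against 8.41% of the 49293 probe sets tested (4.01% higher and 4.4% lower). Without any single array 20 to 24 passed. In the same fits at gene level the calls over all genes fell from 1854 to between 1063 and 1309. Probe sets of a gene share its transcripts and are not independent. A probe set that differed from the others of its gene was found in 4 of the 43 genes with at least 2 probe sets (9.3%), against 8.04% of 11822 such genes on the array, so this share was near the background. ATG5 and BCL2L13 held probe sets called in both directions, which 0.44% of those 11822 genes did. The disagreement within ATG5 was known before these tests, so its place in both counts was not a fresh result. RefSeq lists more than 1 start for 3 of the 4 genes with a differing probe set, ATG5, BCL2L13 and USP30, and for 23.3% of the 43 genes with a window, against 26.5% of all genes with one. Which transcripts each probe set detects was not examined, since probe positions were not used here.

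The 5 genes of the initiation kinase complex gave 0 calls by limma, with 2 at an unadjusted p under 0.05 (24.1% of all genes were) and a median log2 change of 0.15. ULK1, the kinase itself, stood at -0.058, 0 and 0.10 on control replicates 1, 2 and 3 and 0.32, 0.38 and 0.11 on urolithin A replicates 1, 2 and 3. RB1CC1, the large scaffold protein FIP200, stood at -0.095, -0.024 and 0.041 on control replicates 1, 2 and 3 and 0.16, 0.17 and 0.33 on urolithin A replicates 1, 2 and 3. Both had urolithin A arrays above every control array, with log2 changes of 0.26 (adjusted p = 0.112) and 0.25 (adjusted p = 0.0755). ULK1 passed without urolithin A replicate 3 (adjusted p = 0.0486), and 1 of the 2 probe sets of RB1CC1 rose (0.33 ± 0.082 SE in log2 units, adjusted p = 0.0426). The scaffold gene ATG13 had a log2 change of 0.15, the second kinase gene ULK2 0.072 and ATG101, which binds ATG13, -0.15, all with overlapping groups.

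The 6 genes around the class III PI3-kinase, which makes the lipid that marks the growing membrane, also gave 0 calls by limma. Of them 1, ATG14, had an unadjusted p under 0.05, and the median log2 change was 0.11. ATG14, which directs the kinase to autophagosomes, stood at 0.058, 0.029 and -0.14 on control replicates 1, 2 and 3 and 0.10, 0.18 and 0.26 on urolithin A replicates 1, 2 and 3. Its groups did not overlap, and the change did not pass (0.20 ± 0.079 SE in log2 units, adjusted p = 0.161). BECN1, the regulatory subunit Beclin 1, and UVRAG, which directs the kinase to endosomes, also had groups apart, at log2 changes of 0.12 (95% interval -0.02 to 0.27) and 0.10 (95% interval -0.045 to 0.25). The catalytic subunit gene PIK3C3 had 0.22 (95% interval -0.064 to 0.50), with control replicate 3 at 0.39 above all other arrays. Without that array PIK3C3 passed, at a log2 change of 0.37 (adjusted p = 0.0367). The scaffold kinase gene PIK3R4 had -0.074 and AMBRA1, which links Beclin 1 to the cytoskeleton, 0.034, both with overlapping groups.

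In the group of ATG9, the ATG2 lipid carriers and the WIPI proteins, 1 of 5 genes rose and 4 did not pass. The median of their log2 changes was 0.21. WIPI2 codes for the reader of that lipid which recruits ATG16L1. WIPI2 stood at -0.10, 0 and 0.13 on control replicates 1, 2 and 3 and 0.22, 0.39 and 0.34 on urolithin A replicates 1, 2 and 3. The groups were apart by less than the spread within the controls, and the rise was 1.24-fold (0.31 ± 0.082 SE in log2 units, adjusted p = 0.0493). This call lay closest to the threshold of the 12, none of the 3 WIPI2 probe sets passed alone, and leaving out any array other than control replicate 3 ended it, at adjusted p up to 0.148. WIPI1, a second reader, had a larger mean change that did not pass. WIPI1 stood at 0.18, -0.039 and -0.13 on control replicates 1, 2 and 3 and 0.16, 0.49 and 0.73 on urolithin A replicates 1, 2 and 3, and urolithin A replicate 1 lay below control replicate 1 (0.45 ± 0.14 SE in log2 units, adjusted p = 0.0845). Without urolithin A replicate 1 it passed, at a log2 change of 0.60 (adjusted p = 0.0289).

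ATG2A and ATG2B, which carry lipid into the growing membrane, had log2 changes of 0.11 (95% interval -0.046 to 0.28) and 0.21 (95% interval -0.011 to 0.43). A single probe set rose in each, by 0.38 in ATG2A (adjusted p = 0.0423) and by 0.53 in ATG2B (adjusted p = 0.0198), out of 4 each. ATG9A, the membrane protein of the vesicles that seed autophagosomes, had 0.0046 (95% interval -0.16 to 0.17).

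Of the 3 GTPases that shape mitochondria 2 fell and 1 did not pass. The group had a median log2 change of -0.32. DNM1L codes for DRP1, which divides mitochondria. DNM1L stood at -0.058, -0.048 and 0.045 on control replicates 1, 2 and 3 and -0.36, -0.41 and -0.34 on urolithin A replicates 1, 2 and 3. The urolithin A arrays were all below the controls, and the fall was 1.27-fold (-0.35 ± 0.065 SE in log2 units, adjusted p = 0.0123). Of its 4 probe sets 2 fell (log2 changes -0.46 and -0.71), and the others had -0.12 and -0.10. The call held when any 1 array was left out (adjusted p up to 0.0466). It ended when the hybridization controls set the scale (adjusted p = 0.486). It also ended without control replicate 1 and urolithin A replicate 3, the arrays with the highest HLA-DRA of their group (adjusted p = 0.0702).

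MFN2 and MFN1 code for mitofusins, which join the outer membranes of mitochondria, and MFN2 is also a target that PINK1 marks. MFN2 stood at 0.14, 0 and -0.13 on control replicates 1, 2 and 3 and -0.28, -0.32 and -0.36 on urolithin A replicates 1, 2 and 3. The groups did not overlap, and the fall was 1.25-fold (-0.32 ± 0.082 SE in log2 units, adjusted p = 0.0407). Of the 3 probe sets 1 fell (-0.56 ± 0.12 SE in log2 units, adjusted p = 0.0219), and both others had -0.21. Leaving out any array except control replicate 3 ended the call (adjusted p up to 0.115). MFN1 stood at -0.091, -0.0075 and 0.041 on control replicates 1, 2 and 3 and -0.11, -0.16 and -0.17 on urolithin A replicates 1, 2 and 3. Its urolithin A arrays also lay below the controls, by a smaller margin that did not pass (-0.13 ± 0.066 SE in log2 units, adjusted p = 0.289).
The 250 bases before the start of DNM1L (chr12:32679051-32679300, plus strand) are shown beside the windows of risen genes above, and hold neither TGACNNNGC nor CACGTG.
DNM1L: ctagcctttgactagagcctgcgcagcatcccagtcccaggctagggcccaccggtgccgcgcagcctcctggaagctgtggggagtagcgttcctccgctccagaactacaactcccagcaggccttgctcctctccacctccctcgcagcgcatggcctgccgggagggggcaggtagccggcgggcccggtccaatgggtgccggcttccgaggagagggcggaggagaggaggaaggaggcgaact

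Other genes of the pathway were taken from 6 lists of 91 genes, 88 of which had a named probe set. Of these 12 rose (13.6%), and 0 fell by limma, where 8 (9.09%) had an unadjusted p under 0.05 and a change below 0, against 11.5% of all genes. The median log2 change was 0.041. Over all genes the shares called were 10.2% in either direction, 4.85% higher and 5.31% lower.

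Among 14 genes by which autophagosomes tether to and fuse with lysosomes, 3 rose and 11 did not pass. Their median log2 change was 0.090. PLEKHM1, an adaptor between RAB7 and the HOPS complex, rose by 0.55 (adjusted p = 0.00361) on the log2 scale. STX17, the SNARE of finished autophagosomes, rose by 0.41 (adjusted p = 0.0075), and TECPR1, a tethering factor, by 0.37 (adjusted p = 0.0205). Among 16 further factors of autophagosome formation 4 rose and 12 did not pass (median 0.12). They were TP53INP1, a p53 target that binds LC3, at 0.74 (adjusted p = 0.00281), the adaptor gene WDFY3 (ALFY) at 0.43 (adjusted p = 0.0326), SH3GLB1 (Bif-1), which binds Beclin 1 through UVRAG, at 0.36 (adjusted p = 0.019) and ZFYVE1 (DFCP1), a marker of the site where autophagosomes form, at 0.33 (adjusted p = 0.0315). With the median in place of the mean of probe sets SH3GLB1 had -0.042 (adjusted p = 0.755).

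In the remaining lists few genes were called. Of 22 genes of mitochondrial dynamics and quality control 1 rose and 21 did not pass. The median of their log2 changes was -0.0073. That gene was SPATA18, which acts in mitochondrial quality control under p53, at 0.82 (adjusted p = 0.000918). Of 11 receptors of other selective autophagy 1 rose, the ER-phagy receptor gene SEC62 at 0.38 (adjusted p = 0.00661), with a median of 0.056. Of 14 genes for upstream energy and nutrient kinases, their subunits and their regulators, 2 rose, with a median of 0.022. The 2 were the mTOR inhibitor gene DEPTOR at 0.36 (adjusted p = 0.0363) and the AMPK subunit gene PRKAG2 at 0.35 (adjusted p = 0.0299). Of 11 transcription factors that act on autophagy genes 1 rose, MITF at 0.39 (adjusted p = 0.0219), with a median of 0.0068. Its relatives TFEB and TFE3 had -0.11 and 0.036 and did not pass. Of these 12 calls 5 held without each single array, those of SPATA18, TP53INP1, PLEKHM1, STX17 and SEC62. With single arrays left out the count of calls ranged from 6 (control replicate 2) to 10 (urolithin A replicate 3). It was 7 without control replicate 1 or 3 or without urolithin A replicate 1. Of the calls in these fits, 0 to 2 were lower. Over all genes the calls were 1063 without control replicate 2 and 1309 without urolithin A replicate 3.

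**Figure D4:**
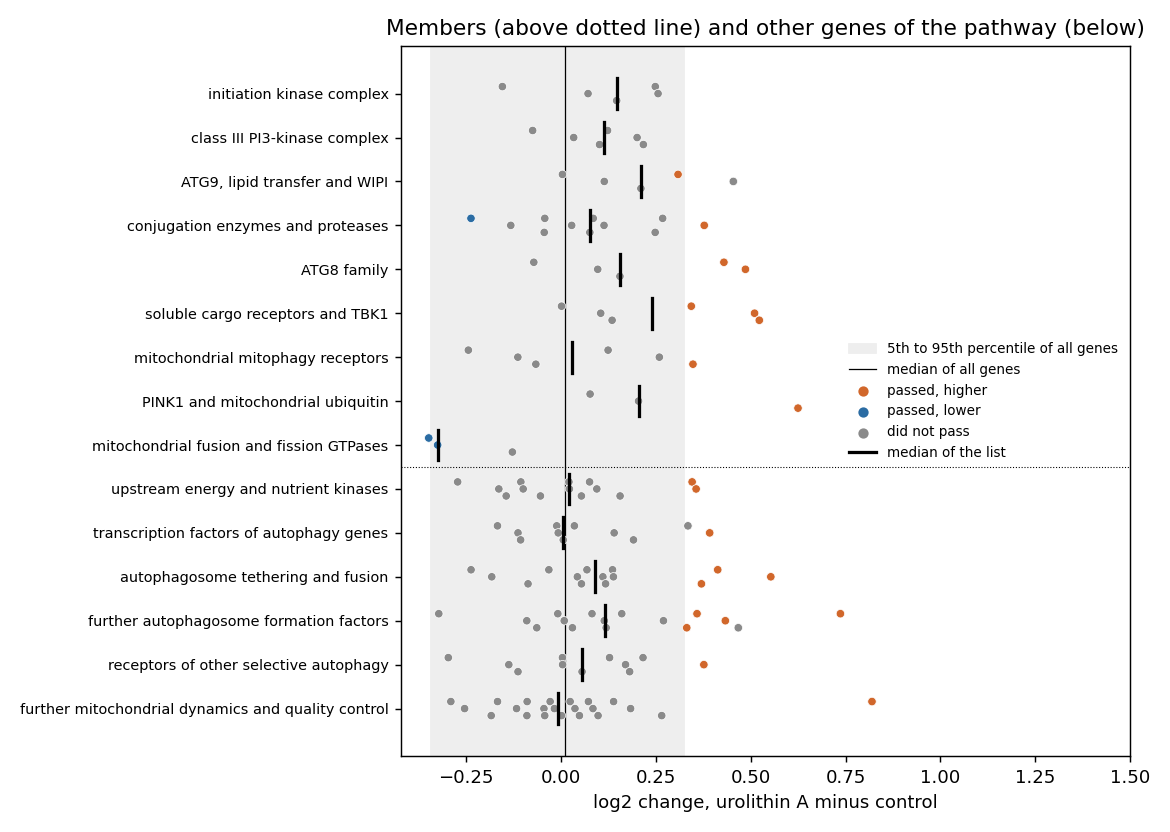
Log2 change (urolithin A minus control, horizontal axis) of each gene in the 9 role groups (above the dotted line) and 6 lists of other pathway genes (below it). Each point is a gene, coloured by its call, heavy bars are list medians, and the grey band holds the 5th to 95th percentile of all 18239 genes, -0.34 to 0.32. The GTPases that shape mitochondria are the only role group whose median lies below 0, at -0.32.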

How the data were processed

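For 6 arrays the authors deposited log2 values of 49386 probe sets. RMA is the method named in the submitters' processing notes, without a version. It subtracts background, equalises the distributions of the arrays and combines the probes of a set. The control median was exactly 0 in all 49386 probe sets, so it had been subtracted. The log base is not stated and was taken as 2, the base RMA uses. Centred values have no level, so no filter on dim probe sets was possible.

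Genes were named through the platform annotation. Probe sets with 1 symbol (45253) entered the gene means, and 1327 with several, 2713 with none and 93 control probe sets did not. Gene means were compared by the moderated two-sided test of limma 3.58.1 (R 4.3.3) with treatment as sole term, and p-values were adjusted by Benjamini-Hochberg over 18239 genes. Probe sets were also fitted singly, and against the mean of the others of their gene on the same array. The fits were also run on simulated data. That run set no requirement for recovering gene-level changes as small as those called here. Alternatives were array weights, no moderation, a robust prior with a trend, median centring, a replicate block, stricter thresholds, each array left out, the median of probe sets, and probe sets without shared-sequence names. Added later were a scale set by 9 hybridization controls and the removal of control replicate 1 with urolithin A replicate 3. A 95% interval is the change plus and minus the moderated t quantile times SE.

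The 50 genes, the role groups and the 6 further lists were chosen with earlier results of these data known. Of the 12 genes called and the 8 others with a called probe set, each is given by array or by its probe sets; from the further lists every called gene is named. Of the 91 listed genes, 3 were not analysed here. Promoter windows come from RefSeq (GRCh38.p14), and the build of the array annotation is not given in the sources used here. No arrays held identical values. No batch was named in the sources used here.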

Additional observations from a re-analysis of the deposited data

Results flagged for a closer look

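Probe sets listed for one of the 50 genes together with another gene were left out of all gene means, and 2 of these 4 passed on their own. The probe set listed for ATG4C and CTR9, a subunit of the PAF1 transcription complex, rose by 0.79 ± 0.10 SE in log2 units (adjusted p = 0.00295). Its values were 0.14, 0 and -0.069 on control replicates 1, 2 and 3 and 0.75, 0.96 and 0.72 on urolithin A replicates 1, 2 and 3. The single probe set listed for ATG4C alone had 0.27 (adjusted p = 0.214 among probe sets). A probe set listed for ABCB6, a mitochondrial porphyrin transporter, and ATG9A rose by 0.44 ± 0.10 SE (adjusted p = 0.033), and a second one for that pair 0.19 (adjusted p = 0.447). The probe set shared by MAP1LC3B and its pseudogene MAP1LC3BP1 had 0.24 (adjusted p = 0.121). Which of the listed genes each detects was not tested.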

How the results depend on the processing

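Under every setting below PINK1 and MAP1LC3B kept their calls, apart from PINK1 being alone at a minimum of 1.5-fold. Of the 50 genes, 12 changed (9 higher, 3 lower). The count was 7 (5 higher, 2 lower) without moderation, 4 (4 higher, 0 lower) at an adjusted p under 0.01, and 1 (1 higher, 0 lower) with a minimum of 1.5-fold. It was 4 (4 higher, 0 lower) with scaling on hybridization controls and 4 (4 higher, 0 lower) without the arrays with the highest HLA-DRA of their group, both added after the data were seen. Over all 18239 genes the calls went from 1854 to 560, 642, 449, 646 and 705 under these 5 settings. A trended and robust prior gave 9, of which 1 was lower, with 1292 of all genes called (718 lower). Leaving out single arrays gave 7 to 12 (6 to 10 higher, 1 to 2 lower), with 1063 to 1309 of all genes called. Among the other pathway genes 12 rose and 0 fell. The count was 5 without moderation and 5 under 0.01 (all higher), 2 at 1.5-fold, and 3 with either added setting. Fits without single arrays gave 6 to 10 (5 to 9 higher, 0 to 2 lower), and 1 fell with the median of probe sets and 1 with probe sets whose names do not mark shared sequence. Of single probe sets 37 passed (29 higher, 8 lower). Without single arrays 20 to 24 passed (16 to 20 higher, 4 to 5 lower), and 5 were lower with a trended and robust prior, which also left 2 of the 4 genes with a differing probe set. Single arrays left out gave 3 to 4 such genes, and of the 9 alternatives ATG5 and USP30 were kept in 9, BCL2L13 in 8 and ATG3 in 4. ATG5 turned to -0.36 (adjusted p = 0.0147) with the median of probe sets and to -0.40 (adjusted p = 0.0237) without shared-sequence names. NBR1 turned to -0.062 (adjusted p = 0.838) without them, WIPI2, ATG7, MFN2 and OPTN lost their calls, 7 of the 12 kept theirs, and ATG3 and BCL2L13 gained one. With the median SH3GLB1 turned to -0.042 (adjusted p = 0.755). These alternatives keep fewer probe sets or weigh them otherwise, and the cause of the turn was not tested. In windows of 100 bases TGACNNNGC was found for 1 gene and not 3. The number of arrays limits the precision, and signal over background could not be examined in centred values.

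Replicate numbers are shared by both groups, but their deviations correlated at only 0.078, 0.023 and 0.2, so the numbers were not taken to pair the arrays. With the replicate number as a block 11 of the 50 genes changed (9 higher, 2 lower), and 13 of the other pathway genes. ATG7 was lost (adjusted p = 0.0704). Over all genes 1863 were called in that fit.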
